A study of Sus scrofa with 36 samples.

Results

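ELOVL1, ELOVL2, ELOVL5, ELOVL6, FADS1 and FADS2 encode fatty acid elongases and desaturases. Their RNA was measured in pig liver with 1-colour Agilent arrays of 60-base probes. Probes were chosen by the gene name, RefSeq accession or description in the scanner tables, and by a spot well above background on 6 or more of 36 arrays. All 6 genes were found, through 23 probes, of 11217 named genes with a kept probe, and all 23 probes passed the filter. ELOVL2 had 8 probes, ELOVL5 5, FADS1 3, FADS2 3, ELOVL1 2 and ELOVL6 2. Probes are numbered within a gene from the brightest (probe 1) down, and the brightest stands for the gene where a single value is given.

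The livers came from 36 growing castrated male pigs. They were Large White (LW), Creole (CR) or F1, the cross of both breeds. Of the 12 animals of each breed, 6 were killed at thermoneutrality (TN, labelled 24 °C) and 6 under heat stress (HS). HS livers are labelled 30 °C, but 32 °C is the temperature in the growth protocol, with an exposure of 5 days. Per the study's methods the pigs came in blocks of littermates, shared pens within a breed and ate freely, and HS animals were killed some days after TN animals. The study also reports that feed intake fell under heat. Litter, pen, feed intake, slaughter day and age are not in the labels. Temperature, feed intake, slaughter day and the few days of added age therefore cannot be told apart. Per the study's methods each pen and each slaughter day also fell within a single temperature. The study's own model held pen, slaughter day, father and mother as random terms, which could not be fitted here. The p-values therefore treat littermates, pen mates and animals killed on the same day as unrelated, and may be too small.

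Elongases add carbon units to an acyl-CoA chain in the endoplasmic reticulum, and desaturases insert double bonds. FADS2 carries out the delta-6 step and FADS1 the delta-5 step by which dietary linoleic and alpha-linolenic acid become arachidonic and eicosapentaenoic acid. ELOVL5 lengthens the intermediates between both steps, and ELOVL2 acts later, on the long polyunsaturated chains that lead to docosahexaenoic acid. ELOVL6 lengthens palmitate, the product of fatty acid synthase, and ELOVL1 lengthens saturated very long chains used in sphingolipids. In liver, FADS1, FADS2, ELOVL5 and ELOVL6 are known targets of the lipogenic regulator SREBP-1c. In the pig assembly Sscrofa11.1, FADS2 (chromosome 2, 9633941 to 9666666) and FADS1 (chromosome 2, 9735425 to 9747405) lie close together. ELOVL1 lies on chromosome 6 (167881357 to 167886125), ELOVL2 on chromosome 7 (7651707 to 7732353), ELOVL5 on chromosome 7 (46860768 to 46932945) and ELOVL6 on chromosome 8 (112038670 to 112190079). The exon or untranslated region that a probe matches was not determined here.

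The probe sequences show which values rest on separate stretches of a transcript. A FADS1 probe and the brightest FADS2 probe share 16 bases, printed in capitals. These genes are paralogues, and the shared run is shorter than either probe.
FADS1 probe 2: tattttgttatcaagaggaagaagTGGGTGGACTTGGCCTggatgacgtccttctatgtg
FADS2 probe 1: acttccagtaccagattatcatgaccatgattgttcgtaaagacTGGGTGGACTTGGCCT
The dimmest FADS1 probe reads the other strand. Its first 19 bases, in capitals, are the reverse complement of the start of FADS1 probe 2, and its first 30 bases are shown.
FADS1 probe 3: TCCTCTTGATAACAAAATAgaaaatatacc
The 8 ELOVL2 probes cover 6 separate stretches. Probes 3 and 4 share 57 bases and probes 7 and 8 share 55, so each pair is close to 1 measurement made again. The first 30 bases of probes 3 and 4, with the shared bases in capitals, and of probe 1, which overlaps none of the others, read as follows.
ELOVL2 probe 3: cagGGAGGCAGGAGAAGCCATTTTTCTTTG
ELOVL2 probe 4: GGAGGCAGGAGAAGCCATTTTTCTTTGTAG
ELOVL2 probe 1: gaaacacatagccttaaaccattcaagagc
Of the pair of ELOVL6 probes, the dimmer is shown whole because its breed difference departed from that of the brighter.
ELOVL6 probe 2: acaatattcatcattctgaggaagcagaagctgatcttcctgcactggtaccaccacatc

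The arrays came on 5 slides (4 arrays on slide 1, 8 on the rest), and each slide carried as many HS as TN livers. Median spot signal ranged from 70 to 92 intensity units and median background from 18 to 25. On the first principal component, which held 18.6% of the variance, 5 arrays stood apart from the rest of their breed: LW TN replicates 1 and 6, F1 HS replicates 1 and 2 and F1 TN replicate 3. LW TN replicates 1 and 6 scored -4.83 and -3.04, against -44.2 to -24.8 for the other LW arrays. F1 HS replicates 1 and 2 and F1 TN replicate 3 scored -17, -21.3 and -18.1, with the other F1 arrays at -1.31 or above. The LW TN and F1 HS arrays among these carry consecutive identifiers in their titles. Groups follow the labels, and whether the breed labels of these arrays are right was not tested. Without these 5 arrays the HS minus TN difference was -1.5 for ELOVL2 (adjusted p = 0.0171), -0.521 for FADS2 (adjusted p = 0.0234) and -0.768 for FADS1 (adjusted p = 0.0699), each in the brightest probe. Values below are log2 of the median spot signal after quantile normalization, and a difference is in log2 units. A probe was called when its Benjamini-Hochberg adjusted p over all 44796 kept probes was under 0.05 in limma. Since signal depends on a probe's own sequence, levels are compared between groups of animals and never between probes.

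Under heat, 10 of the 23 probes were called and all 10 were lower. They were the 8 ELOVL2 probes, the brightest FADS1 probe and the brightest FADS2 probe. Over all kept probes 0.857% were called, and 0.422% were called and lower in HS. The median difference of the 23 probes was -0.49, against 0.00116 for all kept probes. ELOVL2 supplied 8 of the 23 probes, so the count and the median weigh that gene most. Means over the probes of a gene differed by -1.13 (ELOVL2), -0.615 (ELOVL6), -0.394 (FADS1), -0.322 (FADS2), -0.0674 (ELOVL1) and 0.0241 (ELOVL5). No probe of ELOVL1, ELOVL5 or ELOVL6 passed the test. Before adjustment, 14 of the 23 reached p under 0.05 in limma, against 5860 of the 44796 kept probes. As the genes were chosen with earlier results of these data known, their direction is not independent evidence. In a tissue sample, fewer cells of a type and less RNA per cell cannot be told apart.

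**Figure D1:**
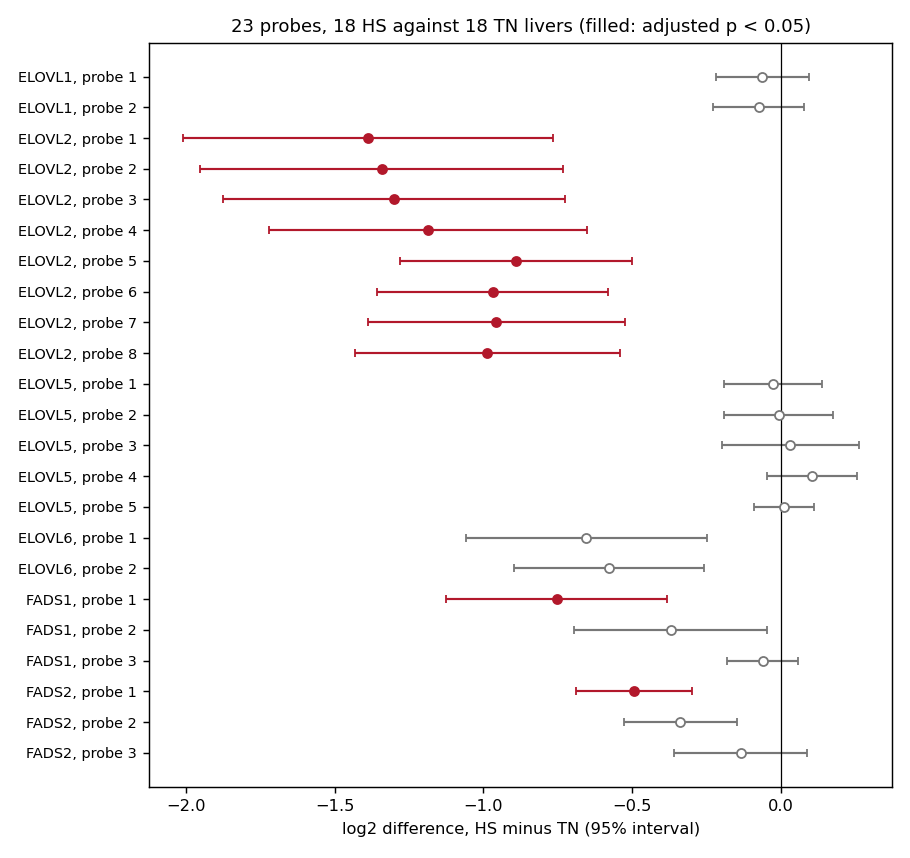
Log2 difference, HS minus TN, of the 23 probes with 95% intervals (18 against 18 livers). Filled points are called probes. The 8 ELOVL2 probes lie between -1.39 and -0.89, and the ELOVL1 and ELOVL5 probes lie between -0.07 and 0.11.

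ELOVL2, the elongase of long polyunsaturated chains, had the widest difference of the 6 genes. In LW the log2 signal of its brightest probe ran from 6.64 through a median of 8.19 to 9.92 at TN, and from 6.23 through 7.96 to 8.82 under HS, so both ranges overlapped widely. The lowest LW TN value, 6.64, came from replicate 1, which stood apart from its breed on the first principal component. In CR the signal ran from 8.48 through 9.20 to 9.95 at TN and from 6.68 through 7.42 to 7.83 under HS. Every CR animal under heat was below every CR animal at thermoneutrality, but how many of all kept probes separate in this way was not counted. In F1 it ran from 7.57 through 9.69 to 11 at TN and from 6.17 through 7.80 to 8.96 under HS. Over breeds the level was 8.969 ± 1.103 at TN and 7.58 ± 0.829 under HS (SD, n = 18), and 16 of the 18 HS animals were below the TN mean of their breed. The difference was -1.39 (SE 0.306, 95% interval -2.01 to -0.77), a signal 2.62-fold lower, with a limma adjusted p of 0.0224.

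The other 7 ELOVL2 probes followed the brightest closely, with correlations of 0.960 to 0.992 over the 36 arrays. Probes 2 to 4 differed by -1.34 to -1.19, and the dimmer probes 5 to 8 by -0.99 to -0.89. Probe 6 had the smallest adjusted p (0.01005), and all 18 HS animals were below the TN median in probes 6 and 7. Averaging the 8 probes into 1 value gave a difference of -1.13 (SE 0.243, adjusted p = 0.018). Leaving out any 1 animal kept the call of probe 1, with differences of -1.52 to -1.28. The calls depended on single slides: all 8 probes lost theirs without slide 2 or slide 4, and 7 lost theirs without slide 3 or slide 5. Without those slides the differences of the lost probes were -1.49 to -0.744 and their adjusted p-values 0.0636 to 0.153.

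FADS2 and FADS1, the delta-6 and delta-5 desaturases, each had 1 called probe of 3. The brightest FADS2 probe ran from 7.38 through 7.64 to 7.98 in LW at TN and from 6.85 through 7.19 to 7.845 under HS. In CR it ran from 6.97 through 7.54 to 7.65 at TN and from 6.18 through 6.92 to 7.27 under HS. In F1 it ran from 7.24 through 7.40 to 7.85 at TN and from 6.555 through 6.88 to 7.14 under HS. The F1 ranges did not overlap while those of LW and CR did, and the share of all kept probes with such a gap was not counted. The level was 7.52 ± 0.255 at TN and 7.02 ± 0.392 under HS (SD, n = 18). The difference was -0.49 (SE 0.0963, 95% interval -0.69 to -0.30). That is a signal 1.41-fold lower (limma adjusted p = 0.00919), the smallest adjusted p of the 23 probes. It held without any 1 animal and was lost without slide 5, where the difference was -0.413 (adjusted p = 0.0933). FADS2 probe 2 differed by -0.34 (adjusted p = 0.0685) and probe 3 by -0.13 (95% interval -0.36 to 0.09, adjusted p = 0.681), so neither was called. Probe 2 was called in the authors' table (-0.347, adjusted p = 0.0416) and without any 1 of F1 HS replicate 4 and LW HS replicates 2 and 4 (-0.371 to -0.368). An unnamed probe whose sequence is the reverse complement of 38 bases of FADS2 probe 2 differed by -0.18 (adjusted p = 0.245).

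The brightest FADS1 probe ran from 10.05 through 10.83 to 11.70 in LW at TN and from 9.465 through 10.01 to 11.33 under HS. In CR it ran from 10.54 through 10.69 to 11.34 at TN and from 8.41 through 10.37 to 10.92 under HS. In F1 it ran from 9.80 through 10.56 to 10.91 at TN and from 9.27 through 9.44 to 10.09 under HS. Ranges overlapped in all 3 breeds, and 15 of 18 HS animals were below the TN mean of their breed. The level was 10.72 ± 0.431 at TN and 9.97 ± 0.744 under HS (SD, n = 18). The difference was -0.75 (SE 0.184, 95% interval -1.13 to -0.38), or 1.69-fold lower (limma adjusted p = 0.0392). This call was close to the threshold. It was lost without any 1 of the 5 slides, with differences of -0.891 to -0.651. It was also lost without any 1 of 15 animals: CR HS replicate 3, CR TN replicates 3 to 6, F1 HS replicates 1, 2 and 5, F1 TN replicates 1, 2, 4 and 6, LW HS replicates 1 and 6, and LW TN replicate 3. Differences without one of these were -0.761 to -0.707, with adjusted p-values up to 0.0677. FADS1 probe 2 differed by -0.37 (95% interval -0.69 to -0.04, adjusted p = 0.290). Probe 3, which reads the other strand and had a mean log2 signal of 5.60, differed by -0.06 (adjusted p = 0.752). Averaged over its 3 probes FADS1 was not called (-0.394, adjusted p = 0.0855), but this mean includes probe 3, which reads the other strand. The mean of the 3 FADS2 probes was called (-0.322, adjusted p = 0.0442).

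**Figure D2:**
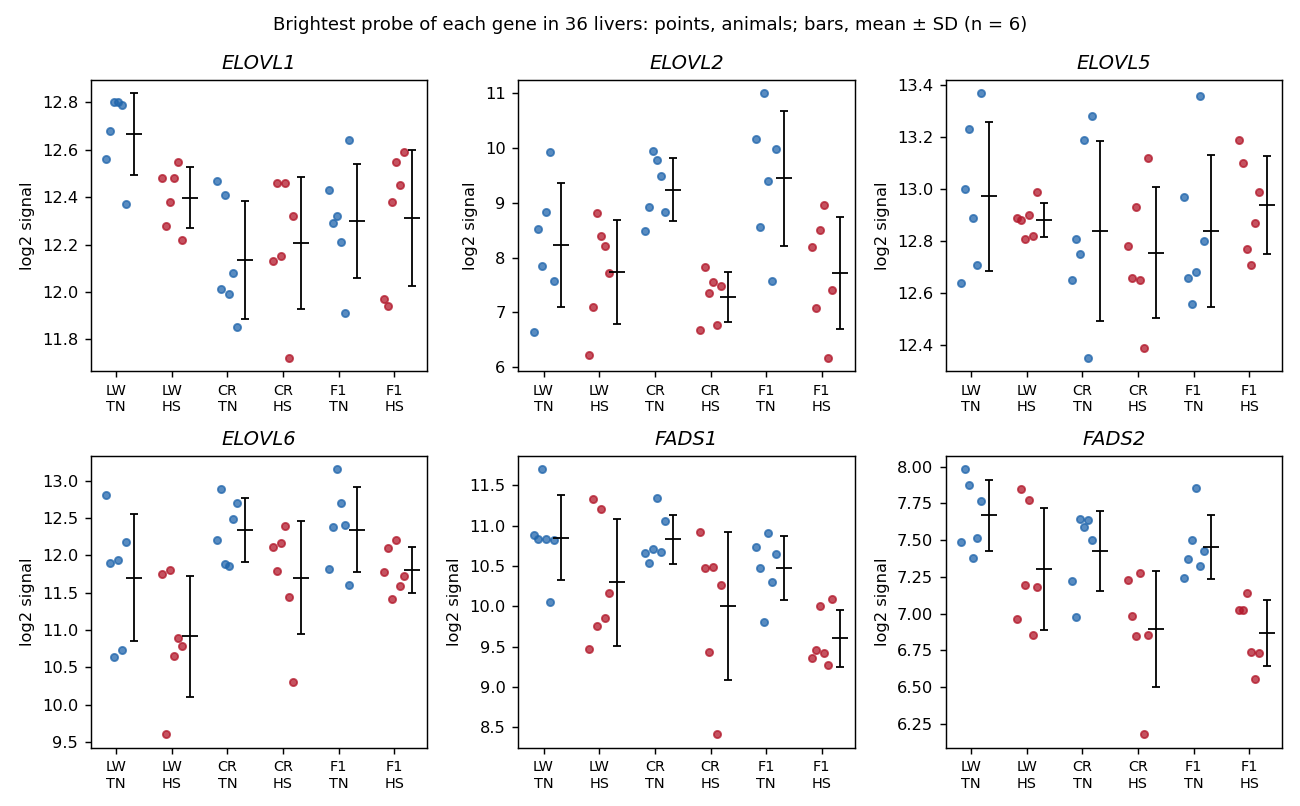
Log2 signal of the brightest probe of each gene in the 6 groups. Points are single livers, TN in blue and HS in red, and bars are the mean ± SD (n = 6). For ELOVL2 the CR groups do not overlap (8.48 to 9.95 at TN, 6.68 to 7.83 under HS), and for ELOVL5 all groups overlap. The share of all kept probes with such a gap was not counted.

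ELOVL6, the elongase of palmitate, was lower under heat in both probes without passing the test. Its brightest probe ran from 10.64 through 11.92 to 12.81 in LW at TN and from 9.60 through 10.84 to 11.80 under HS. In CR it ran from 11.86 through 12.35 to 12.89 at TN and from 10.31 through 11.95 to 12.39 under HS. In F1 it ran from 11.60 through 12.39 to 13.15 at TN and from 11.41 through 11.75 to 12.21 under HS, and the ranges overlapped in all 3 breeds. The difference was -0.65 (SE 0.200, 95% interval -1.06 to -0.25, adjusted p = 0.105), with 15 of 18 HS animals below the TN mean of their breed. Probe 2 differed by -0.58 (95% interval -0.90 to -0.26, adjusted p = 0.0665). That probe was called in the authors' table (-0.588, adjusted p = 0.0377), with slide as a block (-0.576, adjusted p = 0.0477) and without slide 3 (-0.783, adjusted p = 0.0415). It was also called without any 1 of F1 HS replicate 4, LW HS replicates 1 and 3 and LW TN replicate 3 (-0.631 to -0.62).

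ELOVL1 and ELOVL5 showed small differences with narrow intervals. The brightest ELOVL1 probe was 12.37 ± 0.310 at TN and 12.31 ± 0.242 under HS (SD, n = 18), which differ by -0.06 (95% interval -0.22 to 0.10, adjusted p = 0.821). The brightest ELOVL5 probe was 12.88 ± 0.299 at TN and 12.86 ± 0.192 under HS, which differ by -0.02 (95% interval -0.19 to 0.14, adjusted p = 0.941). Single livers ran from 11.85 to 12.80 at TN and from 11.72 to 12.59 under HS for ELOVL1, and from 12.35 to 13.37 and 12.39 to 13.19 for ELOVL5. The ranges overlapped, with 5 of the 18 TN livers above the highest HS liver for ELOVL1 and 4 for ELOVL5. Within LW, 5 of the 6 TN livers were above every HS liver for ELOVL1. How many of all kept probes separate to this extent was not counted. The sign of this ELOVL5 difference turned without slide 5 (0.0573) and without any 1 of F1 TN replicate 5, CR TN replicate 6 and LW TN replicate 6 (0.00188 to 0.00465). The other 4 ELOVL5 probes differed by -0.01 to 0.11. ELOVL5 probes 2 and 3 followed probe 1 over the arrays (r = 0.792 and 0.678), whereas the dim probes 4 and 5 did not (r = -0.0577 and -0.223).

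Within a breed, with 6 animals against 6, no probe of the 6 genes passed the limma test, and the background was as low: 0% of all kept probes were called within LW, 0% within CR and 0.00893% within F1. At an unadjusted p under 0.05 there were 3 of the 23 probes in LW, 12 in CR and 10 in F1, against 2289, 3315 and 4167 of all kept probes. The brightest ELOVL2 probe differed by -0.48 in LW (95% interval -1.52 to 0.56), by -1.96 in CR (-2.997 to -0.92) and by -1.73 in F1 (-2.77 to -0.69). LW TN replicates 1 and 6, which stood apart from LW on the first principal component, had the lowest LW TN values (6.64 and 7.57). F1 TN replicate 3, which also stood apart from its breed, had the highest F1 TN value (11). The within-breed differences without these arrays are not given here. In LW, CR and F1 the brightest FADS1 probe differed by -0.55, -0.83 and -0.88, FADS2 by -0.37, -0.53 and -0.58, and ELOVL6 by -0.78, -0.64 and -0.54. ELOVL1 differed by -0.27 within LW (95% interval -0.54 to -0.00233), by 0.07 within CR and by 0.02 within F1. The difference between breeds in the heat response was itself tested as an interaction. None of the 23 probes was called there and none had an unadjusted p under 0.05, with 0% of all kept probes called and 1677 of them under an unadjusted p of 0.05. For the brightest ELOVL2 probe the interaction p was 0.104 before adjustment and 0.995 after. Without F1 TN replicate 5, ELOVL2 probe 6 was called within F1 (-1.51, adjusted p = 0.0325).

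Slides were compared through deviations from the mean of each breed. The brightest ELOVL2 probe was lower under HS on each of the 5 slides, with differences of -0.59, -1.52, -1.15, -2.22 and -1.06 on slides 1 to 5. The brightest FADS2 probe differed by -0.28 to -0.77 and the brightest FADS1 probe by -0.29 to -1.065 on each slide. FADS1 probe 2 was 0.04 higher on slide 4, and FADS2 probe 3 had both signs. ELOVL6 probe 1 differed by -0.14 to -1.15 on each slide, but probe 2 was 0.12 higher on slide 3. ELOVL1 and ELOVL5 had differences of both signs across slides.

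**Figure D3:**
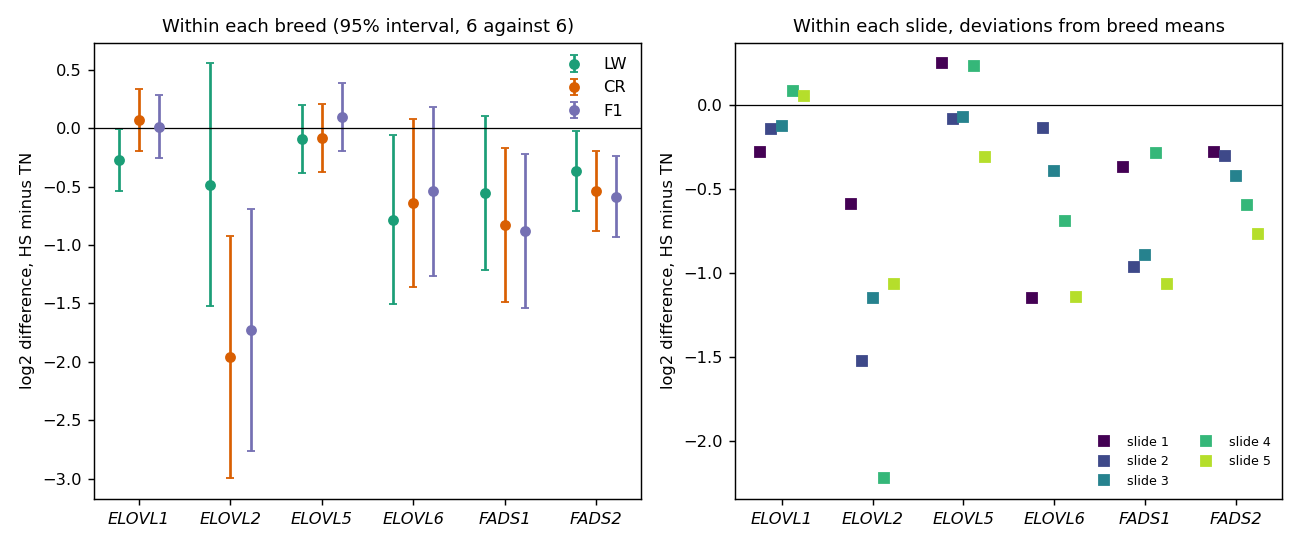
Log2 difference, HS minus TN, of the brightest probe of each gene. Left, within each breed with 95% intervals (6 against 6 livers). Right, within each of 5 slides after subtracting breed means, without error bars since a slide holds 2 to 4 livers per temperature. ELOVL2, ELOVL6, FADS1 and FADS2 lie below 0 in each breed and slide, ELOVL2 from -0.48 to -1.96 across breeds. Arrays that stood apart from their breed on the first principal component are included.

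Between breeds, 6 of the 23 probes were called for CR minus LW, against 26.5% of all kept probes, and 3 for F1 minus LW, against 18.3%. The counts of 6 and 3 of 23 are near these background shares. Both comparisons use the same LW animals. Markers of other liver cells moved with breed too. CR was lower than LW in 4 of 6 macrophage, 3 of 4 endothelial, 3 of 6 lymphocyte and 2 of 7 hepatocyte genes by the same call, and F1 in 4, 2, 2 and 0 of them. Stellate and fibroblast genes were called lower in 1 of 6 for CR and 2 of 6 for F1, and adipocyte genes in 1 of 4 for each. KRT7, 1 of 4 bile duct genes, was called higher in CR (0.744, adjusted p = 0.000338), and no erythroid gene was called. The summed signal of the macrophage genes was 41900 to 56900 intensity units in LW, 26400 to 41800 in CR and 31200 to 44600 in F1, and that of the endothelial genes 5120 to 8220, 4030 to 6180 and 4340 to 6360. Their part in the breed differences of the 6 genes was not tested. ELOVL1, the very long chain elongase, was lower in CR in both probes. Its brightest probe ran from 12.22 through 12.52 to 12.80 in the 12 LW livers, from 11.72 through 12.14 to 12.47 in CR and from 11.91 through 12.35 to 12.64 in F1. CR minus LW was -0.36 (SE 0.0954, adjusted p = 0.00488), and probe 2 differed by -0.46 (adjusted p = 0.000379). F1 lay between both breeds, at -0.22 against LW in probe 1 (adjusted p = 0.0961) and -0.26 in probe 2 (adjusted p = 0.0427). The F1 call of probe 2 was lost without slide 1, 2, 3 or 4 and without any 1 of 12 animals (F1 HS replicates 1 to 3, F1 TN replicates 1, 2 and 5, LW HS replicates 4 and 5, LW TN replicates 2 to 5), with differences of -0.285 to -0.213.

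ELOVL6 was the only member with a called probe higher in CR and F1. Its brightest probe ran from 9.60 through 11.32 to 12.81 in LW, from 10.31 through 12.14 to 12.89 in CR and from 11.41 through 11.96 to 13.15 in F1, so the ranges overlapped. It differed by 0.71 for CR minus LW (SE 0.245, adjusted p = 0.0287) and by 0.76 for F1 minus LW (SE 0.245, adjusted p = 0.0276), and with slide as a block by 0.779 and 0.822. The second ELOVL6 probe, whose sequence is given above, differed by only 0.13 for CR minus LW (adjusted p = 0.661) and 0.38 for F1 minus LW (adjusted p = 0.171). Both probes followed each other over the arrays (r = 0.806), and the cause of the unequal breed difference was not tested. The CR call was lost without slide 2, 3 or 4 and without any 1 of CR HS replicate 4, LW HS replicate 2 and LW TN replicates 3 and 5, at 0.482 to 0.746. The F1 call was lost without the same slides and without any 1 of F1 HS replicate 4, LW HS replicate 2 and LW TN replicates 3 and 5, at 0.515 to 0.794.

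FADS2 was lower in CR in probes 1 and 3, by -0.32 (SE 0.118, adjusted p = 0.0387) and -0.38 (adjusted p = 0.0316). Against LW, F1 was lower in probe 3 by -0.53 (SE 0.135, adjusted p = 0.0069), while probe 1 differed by -0.32 with an adjusted p of 0.05001, just outside the threshold. The calls of probes 1 and 3 for CR minus LW were each lost without any 1 of 8 animals, probe 1 also without slide 2, 3 or 5 and probe 3 without slide 1, 2, 3 or 5. The animals in common were CR HS replicate 5, CR TN replicates 1 and 2, LW HS replicate 2 and LW TN replicates 2 and 3. For probe 1 CR HS replicate 3 and LW HS replicate 4 were added, and for probe 3 CR HS replicate 1 and LW HS replicate 6. Without 1 of these animals the differences were -0.318 to -0.255 in probe 1 and -0.36 to -0.323 in probe 3. The probe 3 call was also lost with slide as a block (-0.378, adjusted p = 0.0508), in the authors' table (-0.356, adjusted p = 0.0533) and with the processed signal (-0.556, adjusted p = 0.0582). ELOVL5 was called in 1 of 5 probes, probe 3, at -0.42 for CR minus LW (SE 0.139, adjusted p = 0.022), and was not called there without slide 2, 3 or 4 (-0.431 to -0.373). For F1 minus LW, ELOVL5 probe 3 differed by -0.29 (adjusted p = 0.151). It was called there without the 5 arrays that stood apart (-0.548, adjusted p = 0.00112), with array weights (-0.339, adjusted p = 0.0463) and without F1 HS replicate 2 (-0.361, adjusted p = 0.0444). Without those 5 arrays ELOVL5 probe 2 was called for CR minus LW (-0.27, adjusted p = 0.0376). Its brightest probe had a level of 12.93 ± 0.203 (LW), 12.80 ± 0.293 (CR) and 12.89 ± 0.242 (F1; SD, n = 12). No ELOVL2 or FADS1 probe was called between breeds. FADS1 probes 1 and 2 differed by -0.53 and -0.50 for F1 minus LW (adjusted p = 0.0924 and 0.0709), and the 8 ELOVL2 probes by 0.235 to 0.60.

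**Figure D4:**
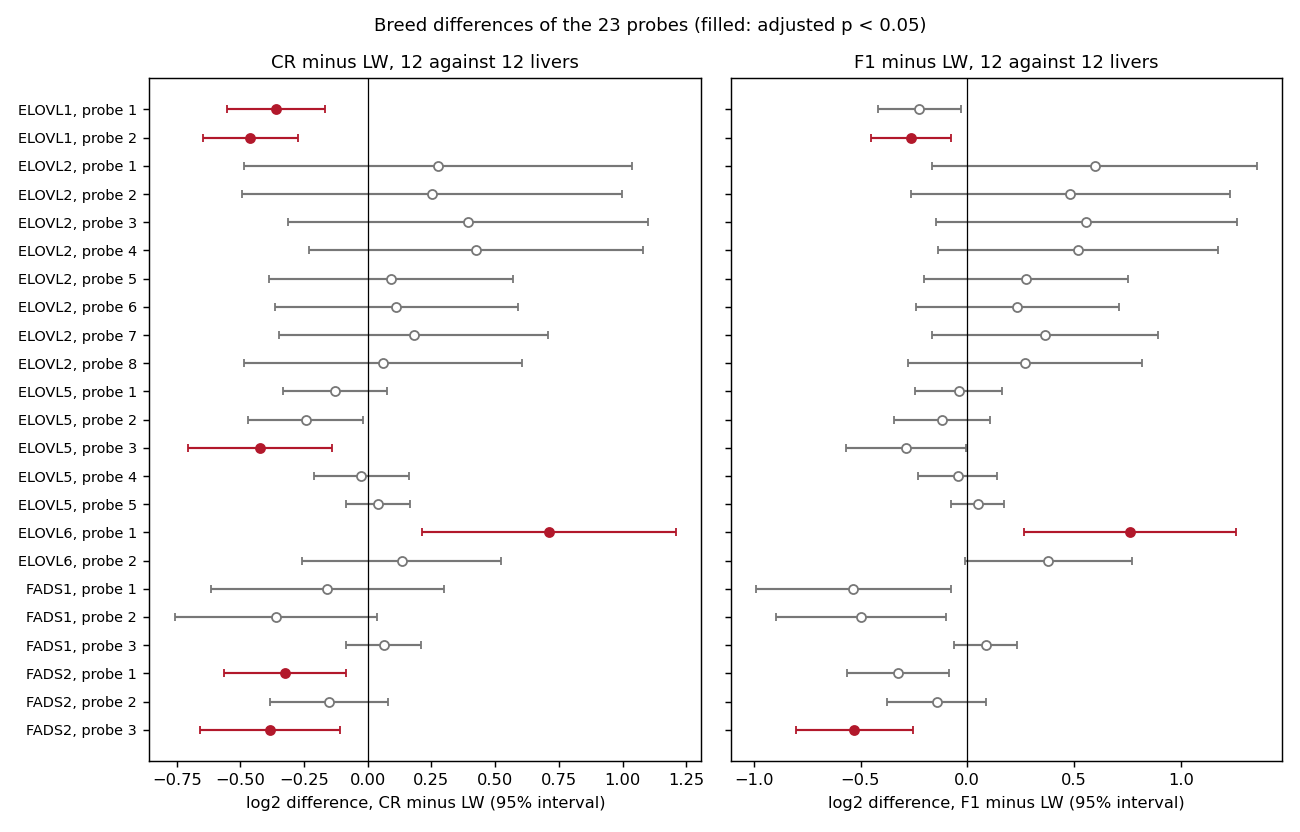
Log2 differences of the 23 probes with 95% intervals, CR minus LW on the left and F1 minus LW on the right (12 against 12 livers). Filled points are called probes, 6 on the left and 3 on the right. ELOVL1 probes lie below 0 on both sides (-0.46 to -0.22), ELOVL6 probe 1 above 0 (0.71 and 0.76).

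F1 minus CR gave 0 called probes of 23 in limma, against 1.5% of all kept probes. At an unadjusted p under 0.05 there was 1 of 23 (ELOVL1 probe 2, 0.20 higher in F1), against 5598 of the 44796 kept probes. F1 against the average of its parental breeds also gave 0 of 23, against 1.13% of all kept probes. Here 2 of 23 had an unadjusted p under 0.05, against 6819 of the 44796 kept probes. Those 2 were FADS1 probe 1 at -0.46 (95% interval -0.85 to -0.06, adjusted p = 0.254) and FADS2 probe 3 at -0.34 (95% interval -0.57 to -0.10, adjusted p = 0.149).

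Animals of 1 group differed from one another more in some genes than in others. The pooled SD within groups was 0.939 for ELOVL2, 0.652 for ELOVL6, 0.594 for FADS1, 0.305 for FADS2, 0.256 for ELOVL5 and 0.234 for ELOVL1. FADS1 and FADS2, both on chromosome 2, varied together from animal to animal. Over deviations from the 6 group means in 36 animals, Pearson's r of their brightest probes was 0.726 (permutation p = 0.00011, adjusted p = 0.00165 over 15 pairs). Spearman's rho was 0.634 (permutation p = 0.00033, adjusted p = 0.00495). Without the 2 animals farthest from the median of FADS1, r was 0.603. These probes share no stretch of 16 bases, and the FADS1 probe that does share one with FADS2 probe 1 was not used here. The values were 0.679 in the authors' table and 0.785 with the processed signal. The other 14 pairs did not pass the test, with r from -0.332 to 0.359. ELOVL2 stood at r = -0.0256 with FADS1 and 0.184 with FADS2, although all 3 were lower under heat.

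Other genes of the pathway were read from 8 lists holding 60 genes with a kept probe, each gene through its brightest probe. Of these, 2 were called and both were lower under heat, ME1 and MFSD2A, against 61 lower and 46 higher of 11217 named genes. The median of all named genes was -0.0034, and 842 lower and 696 higher of them had an unadjusted p under 0.05. Among other elongases and desaturases 0 of 5 were called and 0 had an unadjusted p under 0.05, with a median of 0.0166. In that list, SCD, the delta-9 desaturase, differed by -0.16 (adjusted p = 0.801) and FADS6 by -0.08 (adjusted p = 0.809). ELOVL3, ELOVL4 and ELOVL7 did not pass the filter, and no probe was named FADS3.

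The partners that complete each elongation cycle, reductases and dehydratases, gave 0 called of 6 in limma and 2 under an unadjusted p of 0.05. TECR, the enoyl-CoA reductase of the cycle, differed by -0.16 (adjusted p = 0.267), and the dehydratase HACD3 by 0.17 (adjusted p = 0.0828). No probe was named HSD17B12, another listed partner. The listed electron carriers gave 0 called of 4 and 0 under an unadjusted p of 0.05, and no probe was named CYB5R3, which was also listed. CYB5B differed by -0.17 (adjusted p = 0.627) and CYB5R4 by -0.07 (adjusted p = 0.707). CYB5A, named after its value was seen, differed by -0.03 (adjusted p = 0.914). Peroxisomal chain shortening, the last step towards docosahexaenoic acid, gave 0 called of 8 and 0 under an unadjusted p of 0.05 by the brightest probes, with a median of -0.0706. The dimmer probes of ACAA1, a peroxisomal thiolase, differed from its brightest: they were called at -0.22 and -0.23 (adjusted p = 0.0416 and 0.0391), while the brightest stood at -0.06 (adjusted p = 0.728). The mean of the 3 ACAA1 probes was not called (-0.168, adjusted p = 0.0672). ACAA1 was named after its values were seen. ABCD3, a peroxisomal transporter, differed by -0.26 (adjusted p = 0.443) and EHHADH, the bifunctional enzyme, by -0.15 (adjusted p = 0.460).

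Malonyl-CoA supply and fatty acid synthesis gave 1 called gene of 7, and all 7 differences were negative, with a median of -0.24. ME1, malic enzyme, which supplies NADPH for synthesis, had a level of 7.61 ± 0.477 at TN and 7.085 ± 0.421 under HS (SD, n = 18). It differed by -0.53 (SE 0.136, adjusted p = 0.0493), and its other 2 probes by -0.53 and -0.42 (adjusted p = 0.0525 and 0.0797). This ME1 call was lost without any 1 of the 5 slides and without any 1 of 30 of the 36 animals, at -0.599 to -0.45 with adjusted p-values up to 0.23. It was also lost in 6 of 10 other settings, with adjusted p-values up to 0.0908. The 6 animals whose absence kept it were CR HS replicates 2 and 6, CR TN replicate 2, F1 TN replicate 5, LW HS replicate 5 and LW TN replicate 1. ACACA, acetyl-CoA carboxylase, differed by -0.33 (adjusted p = 0.271). The acyl-CoA synthetases gave 0 called of 7 and 1 under an unadjusted p of 0.05, ACSL4, which prefers arachidonic acid, at 0.47 (adjusted p = 0.309). ACSL3 differed by 0.12 (adjusted p = 0.864).

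The list on placement of polyunsaturated chains gave 1 called gene of 9 with a median of -0.10. MFSD2A, a transporter of lysophosphatidylcholine that carries docosahexaenoic acid, was called at -2.16 (SE 0.518, 95% interval -3.21 to -1.11, adjusted p = 0.0367). Its log2 signal ran from 6.495 through 9.40 to 13.35 in the 18 TN livers and from 5.29 through 7.02 to 9.84 in the 18 HS livers, so the ranges overlapped. The other 2 MFSD2A probes differed by -1.10 and -0.63 and were not called (adjusted p = 0.0684 and 0.133). They were dim, with mean log2 signals of 5.84 and 5.40, and above background on 22 and 11 arrays, against 34 for the brightest. The MFSD2A call was lost without any 1 of the 5 slides, at -2.53 to -1.32 (-1.32 without slide 4), and without any 1 of 11 animals, at -2.11 to -1.94. Those were CR HS replicates 1 and 3, CR TN replicate 5, F1 HS replicates 2, 5 and 6, F1 TN replicates 3 and 4, LW HS replicates 4 and 6 and LW TN replicate 2. FABP1, the liver fatty acid binding protein, differed by -0.19 (adjusted p = 0.416). The 14 transcriptional regulators gave 0 called and 4 under an unadjusted p of 0.05. PPARA, a nuclear receptor for fatty acids, differed by -0.33 (adjusted p = 0.266) and HNF4A, a regulator of hepatocyte identity, by 0.23 (adjusted p = 0.186). SREBF1, which encodes SREBP-1c and is named here after its value was seen, differed by 0.000916 (adjusted p = 0.998). Means over all kept probes of the gene differed by -0.263 (PPARA, adjusted p = 0.121), 0.0396 (HNF4A, adjusted p = 0.83) and 0.0886 (SREBF1, adjusted p = 0.741). The SREBP-1c protein and its activity were not measured.

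**Figure D5:**
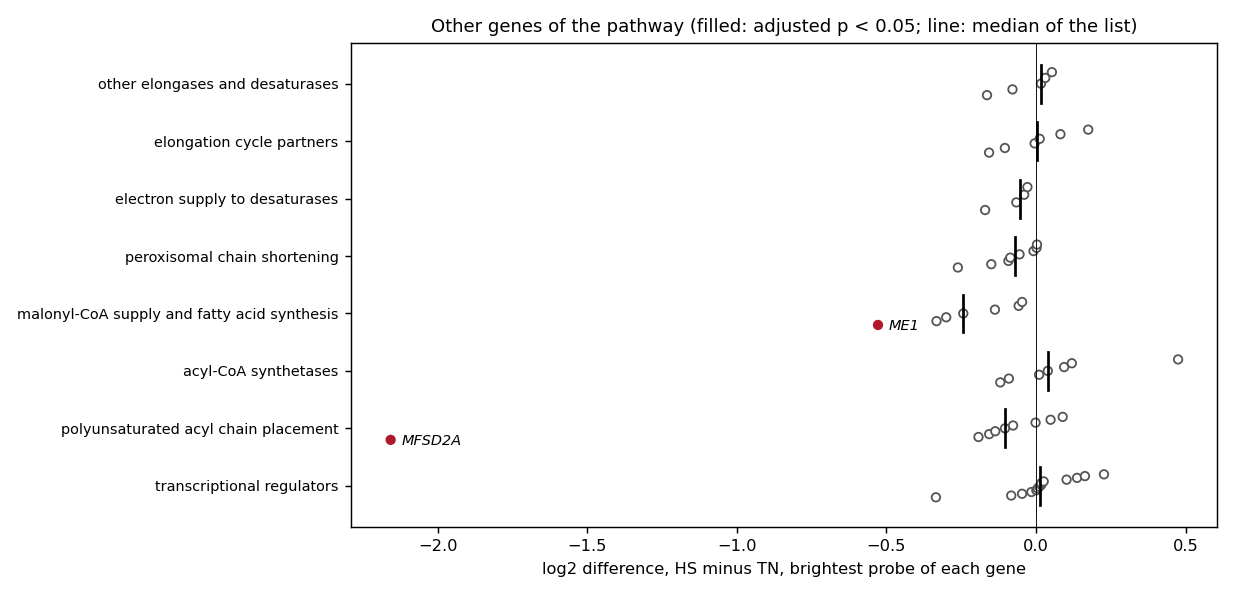
Log2 difference, HS minus TN, of the brightest probe of 60 other genes of the pathway in 8 lists (18 against 18 livers). Points are genes, filled where called, and lines are list medians. ME1 (-0.53) and MFSD2A (-2.16) are the called genes.

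The livers had the markers of their tissue: 7 of 8 listed hepatocyte genes had a kept probe, among them ALB, APOA1 and TF, and their HS minus TN differences were -0.01 to 0.07. Over 8 marker lists with 39 genes, 0 were called under heat in limma and 2 had an unadjusted p under 0.05. The summed linear signal of the hepatocyte genes was 1870000 to 2110000 intensity units in TN and 1930000 to 2130000 in HS. For 6 macrophage genes it was 31200 to 56300 and 26400 to 56900, for 6 stellate and fibroblast genes 15400 to 28600 and 13500 to 34900, and for 4 endothelial genes 4230 to 8220 and 4030 to 7540. For 4 bile duct genes, all of them higher in HS by 0.10 to 0.19 without a call, it was 818 to 1750 and 877 to 2240. For 6 lymphocyte genes it was 479 to 943 and 476 to 787, for 4 adipocyte genes 1640 to 3190 and 1540 to 3330, and for 2 erythroid genes 671 to 6430 and 461 to 4970. The part of cell makeup in the falls of ELOVL2, FADS1 and FADS2 was not tested.

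The genes whose brightest probe most resembled that of a member were ranked by Pearson's r over the 36 arrays, as a description. These arrays share breed, temperature and slide. For ELOVL2 they were CPT1A (r = 0.741), ADIPOR2 (0.733) and C1H18ORF25 (0.702), and over deviations from group means CPT1A (0.724), UPRT (0.702) and PI16 (0.688). CPT1A, the carnitine transferase that admits long chains to mitochondria, was lower under heat in each of its 6 probes without a call (-0.69 to -0.15, adjusted p from 0.119 to 0.531). For FADS1 they were PTCD2 (0.617), TBR1 (0.598) and COX7B (0.589), and within groups MYL2 (0.628), GIPC1 (0.607) and DHDH (0.593). For FADS2 they were PTCD2 (0.734), STK24 (0.693) and EXOSC3 (0.690), and within groups they included PTCD2 (0.567) and GIPC1 (0.558).

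For ELOVL6 the nearest were MOSPD3 (0.778), CIB2 (0.634) and YEATS2 (0.626), and within groups YEATS2 (0.664), MOSPD3 (0.658) and C11ORF75 (0.615). For ELOVL1 they were RAB3D (0.731), SSR4 (0.727) and TMEM93 (0.697), and within groups PCSK6 (0.786), DGCR8 (0.738) and MBOAT7 (0.732). For ELOVL5 they were the brightest probe named GCM1 (0.895), CS (0.698) and ACY1 (0.675), and within groups the same probe (0.893), NR0B1 (0.794) and NAGS (0.768). GCM1 (chromosome 7, 46767498 to 46798317) lies 62 kb from ELOVL5. The brightest GCM1 probe had a mean log2 signal of 13.05 and differed by -0.04 under heat, whereas the other 2 GCM1 probes had means of 6.005 and 5.40 and correlated with ELOVL5 at -0.0321 and -0.0182. The probe's place in the genome was not checked here, so whether it measures GCM1 was not tested.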

How the data were processed

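Liver RNA of 36 pigs was hybridised to 1-colour arrays. The authors deposited 1 scanner table per array from Agilent Feature Extraction 10.10.1.1, whose signals are linear intensity values not normalized between arrays. They also deposited a table of log2 values for 42051 probes. It lies near 7.66 for every probe, so only its differences between arrays were used (median r with the scanner values 0.962 over arrays). From the scanner tables the median signal was log2 transformed and quantile normalized, 107 non-uniform spots were set missing, and probes above background on 6 or more arrays were kept (44796 of 60305, 74.3%). Groups came from the labels. limma 3.58.1 in R 4.3.3 fitted breed and temperature, and the 6 group means for within-breed and interaction tests, with Benjamini-Hochberg adjustment over all kept probes. Correlations used 100000 permutations within groups. The fit was tested on simulated data. The genes, probes and lists were chosen with earlier results of these data known. Genes named from a list are those called and up to 2 with the largest difference. Replicate numbers only name animals. Alternatives covered signal column, background correction, filter, slide, weights, variance model and left-out animals or slides. Promoters, proteins and probe positions were not analysed here, and 1 gene of the likeness ranking is not reported here. The number of arrays limits the precision.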

Additional observations from a re-analysis of the deposited data

How the results depend on the processing

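Lower ELOVL2, FADS1, FADS2 and ELOVL6 signal under heat kept its direction in the brightest probe under every alternative tried. The count of called probes under heat, 10, became 1 when slide 2, 4 or 5 was left out and 3 when slide 3 was. Over all kept probes the 384 calls became 148, 79, 134, 70 and 85 when slides 1 to 5 were left out in turn, and 211 without a breed term. For CR minus LW the 6 called probes became 2 without slide 2 and 2 without slide 3. For F1 minus LW the 3 called probes became 1 without slide 2, 3 or 4, 5 with array weights and 5 without 5 arrays that stood apart from their breed on the first principal component, an alternative chosen after seeing the data. The calls over all kept probes moved with them, for CR minus LW from 11855 to 9907 without slide 2, 5686 without slide 3 and 7898 without slide 4. For F1 minus LW they went from 8220 to 4290, 1584 and 4839 without those slides, to 11619 with array weights and to 14488 without the 5 arrays. Leaving out single animals gave 9 to 12 called probes under heat, 3 to 6 for CR minus LW (3 without LW TN replicate 3 or LW HS replicate 2), 1 to 6 for F1 minus LW (1 without LW TN replicate 3, 5 without LW HS replicate 1 and 6 without CR HS replicate 5) and 0 to 1 within F1. The brightest ELOVL5 probe, never called, turned sign without slide 5 (0.0573) and without single animals, whose range was -0.0536 to 0.00465. The FADS1 call under heat was lost with the processed signal (-0.775, adjusted p = 0.0525), without a breed term (-0.754, adjusted p = 0.062) and without the 5 arrays (-0.768, adjusted p = 0.0699). The FADS2 probe 1 call for CR minus LW was lost with the processed signal (-0.381, adjusted p = 0.0539), the authors' table (-0.275, adjusted p = 0.061), slide as a block (-0.291, adjusted p = 0.0723) and array weights (-0.294, adjusted p = 0.0559). The ME1 call under heat was lost with the processed signal (adjusted p = 0.0544), the authors' table (0.0565), no filter (0.0623), the trended and robust variance model (0.0514), no breed term (0.079) and without the 5 arrays (0.0908), and the MFSD2A call without the 5 arrays (0.0549). What lies behind these changes was not tested, though leaving out a slide removes 4 or 8 arrays. No paired analysis was possible because the labels do not give the litter of an animal.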

Other observations

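Of 48 comparisons of a single animal with the rest of its group, over the brightest probe of each gene and 2 array measures, 0 animals stood apart by Dixon's test, where chance gives about 1 in 20.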
